A study of Homo sapiens with 4 samples.

Results

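Aminoacyl-tRNA synthetases, the enzymes that join each amino acid to its tRNA, were followed in NOMO-1 cells after hairpins against ZFX. The set was a list of 38 genes, made up of 19 cytosolic enzymes, 16 mitochondrial enzymes and 3 scaffold proteins of the cytosolic multi-synthetase complex. A gene was included where a probe set carried its symbol alone, and the brightest such probe set over the 4 arrays stood for it. This gave 36 genes of the 18417 named on the array, all of them among the 12892 that passed the filter on dim genes. The scaffold genes AIMP2 and EEF1E1 were not analysed here. NOMO-1 is an established human cell line from an acute myeloid leukaemia with monocytic features. All cells had received lentivirus at a multiplicity of infection of 1, and total RNA was taken 48 h after selection. The control group held the array of a GFP virus (LEN-GFP) and that of a scrambled hairpin (SCR), both labelled ZFX wild type. The ZFX knock-down group held the arrays of the hairpins SH1 and SH3 (ZFX-SH1 and ZFX-SH3). No construct was measured more than once, so every p-value below measures the spread between constructs and arrays together, which may be technical in part, and an exact permutation test of 2 against 2 arrays cannot go below 0.33.

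Cytosolic synthetases supply the ribosomes of the cytoplasm, and several of them are held in a large complex with the scaffold proteins AIMP1, AIMP2 and EEF1E1. Separate nuclear genes encode most of the mitochondrial enzymes, which serve the small set of proteins made inside mitochondria, while GARS1 and KARS1 each encode a form for both places. When charged tRNA runs short, the kinase EIF2AK4 (GCN2) raises translation of the transcription factor ATF4, and many cytosolic synthetase genes are known targets of ATF4.

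The targeted transcript, ZFX, stood at a log2 intensity of 10.65 for LEN-GFP and 10.66 for SCR, and at 10.13 for SH1 and 10.12 for SH3 (limma adjusted p = 0.797). Median intensities of the 4 arrays lay between 184.8 and 189.8. Of the myeloid markers, 8 of 8 on the array were above the limit for dim genes, while 0 of 4 T cell markers, 2 of 3 B cell, 2 of 3 erythroid, 2 of 4 epithelial and 3 of 4 fibroblast markers were. Summed on the log2 scale, the myeloid markers were at 15.70 and 15.67 on the controls, 15.68 on SH1 and 15.55 on SH3. SH3 was the highest array for 3 of the 8 (CD14, CSF3R and ITGAM), the lowest for 2 (LYZ and MPO) and between the others for 3. The values furthest from the other arrays, singled out after they were seen, were MPO on SH3, at 12.31 against 13.30 to 13.36, and CSF1R on SH1, at 9.92 against 8.89 to 9.17. Their part in the differences of the synthetase genes was not tested. In RNA from a whole culture, fewer cells of a type and less RNA per cell cannot be told apart.

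A promoter element found in some of the cytosolic genes is shown first, because the array values are later described with and without it. The core of the CEBP-ATF response element (searched as TGATGNAA on both strands), the site that ATF4 is known to bind, was looked for in RefSeq promoter windows of 300 bases (GRCh38.p14), from 250 bases before a start site to 50 after it. It occurred in 7 of the 16 cytosolic genes with a window (43.8%), in 1 of the 14 mitochondrial genes (7.14%) and in 4.46% of 27305 genes of all kinds. LARS1, VARS1, YARS1, AARS2 and VARS2 had no window in the table. Each match is given in the direction of transcription, with the element core in capitals.
AARS1, chr16:70289675-70289704, minus strand: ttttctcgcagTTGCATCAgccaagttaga
CARS1, chr11:3057407-3057436, minus strand: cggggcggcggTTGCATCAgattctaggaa
GARS1, chr7:30594834-30594863, plus strand: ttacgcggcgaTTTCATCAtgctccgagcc
IARS1, chr9:92293692-92293721, minus strand: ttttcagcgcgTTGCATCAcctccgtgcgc
MARS1, chr12:57488053-57488082, plus strand: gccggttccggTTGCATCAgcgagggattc
NARS1, chr18:57621804-57621833, minus strand: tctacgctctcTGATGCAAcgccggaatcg
TARS1, chr5:33440956-33440985, plus strand: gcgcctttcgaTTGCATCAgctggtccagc
YARS2, chr12:32756076-32756105, minus strand: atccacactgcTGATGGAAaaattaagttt
In CARS1, IARS1, MARS1, NARS1 and TARS1 the core read TTGCATCA or its reverse complement and lay between positions -13 and 21, counted from the start base as 0. The core of AARS1 began at position -187 and that of YARS2 at position -197. In CARS1, GARS1 and TARS1 only 1 of the 2 start sites in the table had the match.

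Across the 19 cytosolic enzymes the hairpin arrays were on average below the controls for 16 genes and above for 3, with a median difference of -0.17 on the log2 scale. The 16 mitochondrial enzymes divided evenly, 8 below and 8 above, with a median of -0.01. Over all genes tested, 50.8% were below and the median was -0.0029. The median difference of the cytosolic genes was -0.07 without LEN-GFP, with 14 of 19 below, and that of the cytosolic minus the mitochondrial genes went from -0.17 to -0.06. Without SH1 the latter was also -0.06. LEN-GFP was the highest of the 4 arrays for 13 of the 19 cytosolic genes and for 5 of the 16 mitochondrial genes, against 26.1% of all genes. SCR was below LEN-GFP in both classes, for 14 of 19 cytosolic and 13 of 16 mitochondrial genes, beside 58.6% of all genes. It was the lowest array for 2 cytosolic and 8 mitochondrial genes.

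**Figure D1:**
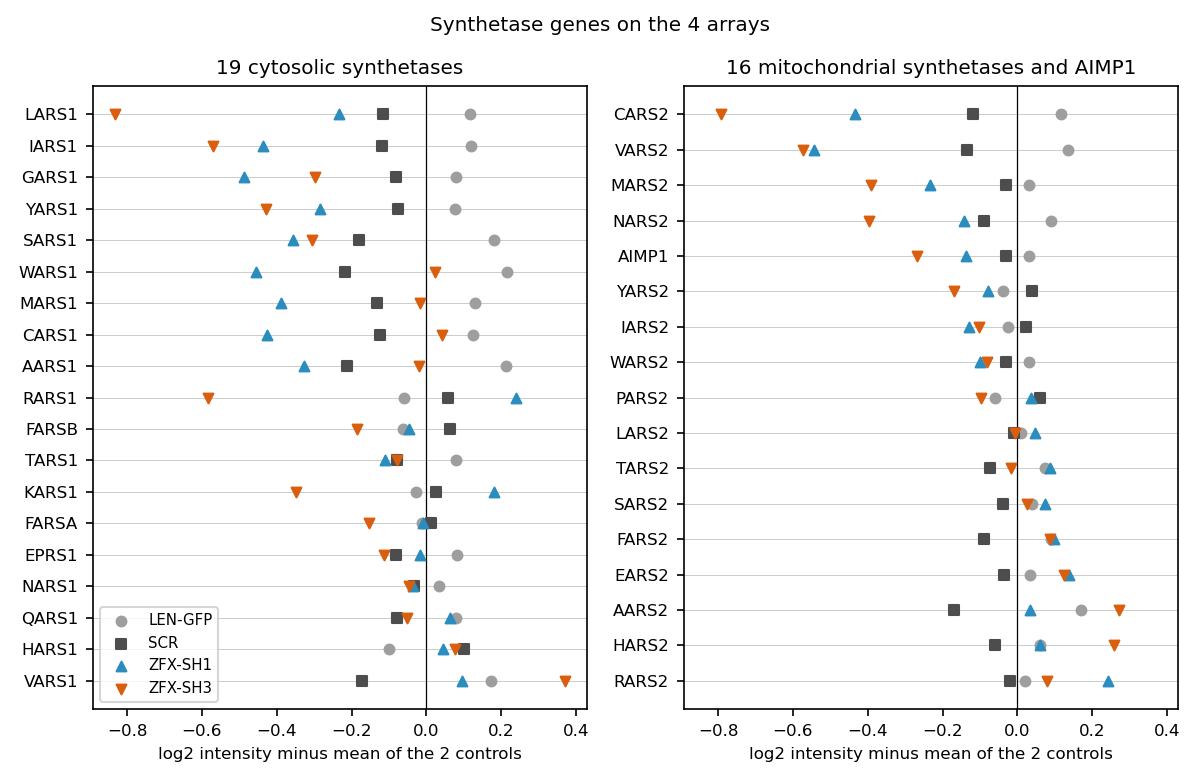
Each row is a synthetase gene and each symbol an array, placed at its log2 intensity minus the mean of LEN-GFP and SCR. In the left panel LEN-GFP lies to the right of the other arrays for 13 of 19 cytosolic genes, and SH3 lies far to the left for LARS1, IARS1 and RARS1.

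Single members did not pass the test over all genes. In limma the adjusted p was 0.797 at the lowest for any member, and 0 of 36 members were called, as were 0 of the 12892 genes (0%). At an unadjusted p under 0.05, 6 members were lower (IARS1, GARS1, YARS1, CARS2, VARS2 and MARS2), which is 16.7% of the 36 beside 3.26% of all genes (6.04% in either direction), and 0 were higher. Leaving out LEN-GFP left 1 such member, VARS2, beside 0.791% of all genes, and leaving out SH1 gave 10 lower, beside 13.8%. Both hairpin arrays lay below both controls for 15 members (41.7%, background 19.0%) and above both for 3 (background 18.2%). The groups did not overlap for 18 members in all, beside 37.2% of all genes, and overlapped for the other 18.

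Among cytosolic enzymes, IARS1 had the widest gap between the groups. IARS1, the isoleucine enzyme and a part of the multi-synthetase complex, had log2 intensities of 12.27 on LEN-GFP, 12.04 on SCR, 11.72 on SH1 and 11.58 on SH3. Both hairpin arrays were low and the groups did not overlap, with the hairpins at 70.6% of control (difference -0.50, SE 0.12, limma adjusted p = 0.797). Of its 250 bases upstream of the start site (chr9:92293698-92293947, minus strand, GRCh38.p14), the E-box (CACGTG, searched on both strands, a site known for MYC and its partners) and the element core are in capitals, because this promoter held both.
IARS1 upstream: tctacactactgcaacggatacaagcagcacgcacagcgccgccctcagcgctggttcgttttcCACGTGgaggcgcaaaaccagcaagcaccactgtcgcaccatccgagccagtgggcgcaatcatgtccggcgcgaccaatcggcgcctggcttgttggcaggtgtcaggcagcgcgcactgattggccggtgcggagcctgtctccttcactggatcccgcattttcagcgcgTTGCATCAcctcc

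GARS1, the glycine enzyme of both compartments, stood at 12.32 on LEN-GFP, 12.16 on SCR, 11.75 on SH1 and 11.94 on SH3. SH1 was the lower of the hairpins, and the difference was -0.39 (SE 0.11). YARS1, the tyrosine enzyme, read 11.38 on LEN-GFP, 11.23 on SCR, 11.02 on SH1 and 10.88 on SH3, a difference of -0.36 (SE 0.11). Its arrays were ordered as those of IARS1. SARS1, the serine enzyme, was at 11.86 on LEN-GFP and 11.49 on SCR, with 11.32 on SH1 and 11.37 on SH3. Its controls lay further apart (SCR minus LEN-GFP -0.36) than SCR and either hairpin. LARS1, the leucine enzyme, which also acts as a leucine sensor for mTORC1, was at 11.29 on LEN-GFP, 11.05 on SCR, 10.94 on SH1 and 10.34 on SH3. The groups did not overlap, but SH3 alone was far below the other arrays. TARS1 (threonine) and NARS1 (asparagine) counted as below both controls as well, although their nearest arrays were the same to the second decimal, at 11.75 for TARS1 and 11.87 for NARS1.

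For the other 12 cytosolic enzymes the groups overlapped. VARS1, the valine enzyme, was the member with the largest difference upwards, at 9.97 on LEN-GFP, 9.63 on SCR, 9.90 on SH1 and 10.17 on SH3 (difference 0.23, SE 0.18). SCR was its low array and SH3 its high one. Its 2 probe sets had equal values. The phenylalanine subunits FARSA and FARSB differed by -0.08 and -0.12, EPRS1, which joins the glutamate and proline enzymes in a single protein, by -0.06, QARS1 (glutamine) by 0.01 and HARS1 (histidine) by 0.06.

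The mitochondrial enzymes with the widest gaps were VARS2 and CARS2. VARS2, the valine enzyme of mitochondria, was at 8.36 on LEN-GFP, 8.09 on SCR, 7.68 on SH1 and 7.66 on SH3. Both hairpins were low and close to each other, at 67.9% of control (difference -0.56, SE 0.13, limma adjusted p = 0.797). A second probe set gave -0.55. Its values were nearly those of the first, at 8.34 on LEN-GFP, 8.08 on SCR, 7.70 on SH1 and 7.625 on SH3. Whether the 2 sets share probes was not examined, so the second is not counted as separate support. CARS2, the cysteine enzyme, which is also known to make cysteine persulfides, was at 10.59 on LEN-GFP, 10.35 on SCR, 10.04 on SH1 and 9.68 on SH3. It stood at 65.4% of control (difference -0.61, SE 0.17), the lowest share of any member. MARS2, the methionine enzyme, was at 8.07 on LEN-GFP, 8.01 on SCR, 7.81 on SH1 and 7.65 on SH3, and its difference was -0.31 (SE 0.11). Here the controls were close to each other and both hairpins lay below them.

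Narrower gaps were found for NARS2 (10.08 on LEN-GFP, 9.90 on SCR, 9.85 on SH1 and 9.59 on SH3), the asparagine enzyme. Its SH1 array was next to SCR, and SH3 was low. IARS2, the isoleucine enzyme, was at 9.83 on LEN-GFP, 9.88 on SCR, 9.73 on SH1 and 9.75 on SH3, a difference of -0.12. WARS2, the tryptophan enzyme, differed by -0.09 and YARS2 (tyrosine) by -0.12, each with an SE of 0.11 or less, and in both the groups were separate by less than the SE.

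Above both controls were EARS2 (glutamate), RARS2 (arginine) and HARS2 (histidine). EARS2 was at 8.58 on LEN-GFP, 8.51 on SCR, 8.68 on SH1 and 8.67 on SH3, a difference of 0.13 (SE 0.11). RARS2 was at 10.003 on LEN-GFP, 9.96 on SCR, 10.23 on SH1 and 10.06 on SH3, a difference of 0.16 (SE 0.12). HARS2 was at 9.16 on LEN-GFP, 9.04 on SCR, 9.16 on SH1 and 9.36 on SH3, so that SH1 and LEN-GFP were level. The remaining 6 mitochondrial enzymes overlapped between the groups, from PARS2 (proline) at -0.03 to AARS2 (alanine) at 0.15. LARS2, SARS2, TARS2 and FARS2 lay between 0.02 and 0.09.

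HARS1 and HARS2 are neighbours in the genome and are read in opposite directions, with 84 bases between their start sites. This stretch is printed because it lies upstream of a cytosolic and a mitochondrial member at once (chr5:140691371-140691454, plus strand, GRCh38.p14, HARS2 to its right).
HARS1-HARS2: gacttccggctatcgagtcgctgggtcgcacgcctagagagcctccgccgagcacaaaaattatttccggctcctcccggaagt
HARS1 was at 10.78 on LEN-GFP, 10.98 on SCR, 10.92 on SH1 and 10.95 on SH3, so that LEN-GFP was its lowest array, while SCR was the lowest for HARS2. The differences were 0.06 (SE 0.12) for HARS1 and 0.16 (SE 0.13) for HARS2.

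For 16 amino acids a cytosolic and a mitochondrial enzyme could be set side by side, in 17 pairs, since phenylalanine has 2 cytosolic subunits and EPRS1 served for both glutamate and proline. The cytosolic enzyme had the lower difference in 13 pairs. LARS1 and LARS2 were furthest apart in that direction, at -0.53 and 0.02, followed by IARS1 (-0.50) and IARS2 (-0.12). The other 4 pairs, for methionine, asparagine, cysteine and valine, went the other way, and VARS1 (0.23) and VARS2 (-0.56) were the furthest apart of all pairs. Both members were below both controls for isoleucine, asparagine and tyrosine. These are descriptions of 4 arrays without a test.

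**Figure D2:**
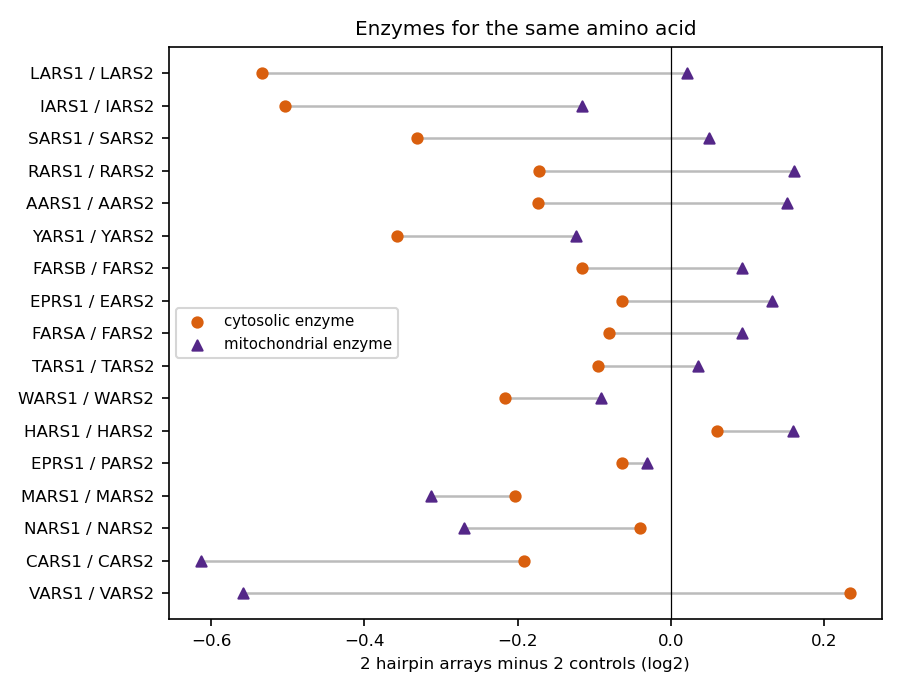
Each line joins the cytosolic (circle) and the mitochondrial (triangle) enzyme for an amino acid at their differences, the mean of SH1 and SH3 minus the mean of LEN-GFP and SCR on the log2 scale. The circle lies to the left in 13 of 17 pairs, and the valine pair at the bottom is the widest, from -0.56 to 0.23.

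Set against each other, the hairpin arrays gave calls for RARS1, LARS1 and KARS1. RARS1, the arginine enzyme, was at 10.76 on LEN-GFP, 10.88 on SCR, 11.06 on SH1 and 10.23 on SH3. SH1 was its highest array and SH3 its lowest, so that the mean of both hairpins differed little from control (-0.17, SE 0.28). KARS1, the lysine enzyme, had the same order, at 11.01 on LEN-GFP, 11.06 on SCR, 11.22 on SH1 and 10.69 on SH3. SH3 was lower than SH1 by a log2 difference of -0.82 (SE 0.13) for RARS1, -0.60 (SE 0.15) for LARS1 and -0.53 (SE 0.12) for KARS1, and limma called these 3 (adjusted p = 0.00865, 0.0408 and 0.0344). In this fit the pair of controls alone gives the spread, and a lone array is assumed to vary like that pair. The 3 are 8.33% of the 36 members, beside 8.49% of all genes called in either direction and 4.48% in this one, so the share of members called is near the background.

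All 3 belong to the complex. For the 7 listed enzymes of the complex the median difference from control was -0.35 on SH3, with 7 of 7 lower, and -0.02 on SH1, with 4 of 7 lower. For the 12 cytosolic enzymes outside the complex the medians were -0.06 on SH3, with 8 of 12 lower, and -0.20 on SH1, with 10 of 12 lower. Within the complex, MARS1, QARS1 and EPRS1 differed on SH3 by only -0.02, -0.05 and -0.11. Each hairpin is 1 array, and the enzymes inside and outside the complex were not tested against each other. The scaffold AIMP1 was at 9.35 on LEN-GFP, 9.29 on SCR, 9.19 on SH1 and 9.05 on SH3, below both controls on both hairpins, with a difference of -0.20 (SE 0.12). Over all genes 50.3% were lower on SH3 and 50.2% on SH1.

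Set alone against both controls, SH3 was called lower by limma for 6 members. These were LARS1 at 56.2% of control (adjusted p = 0.00423), CARS2 at 57.8% (0.0075), RARS1 at 66.7% (0.0124), IARS1 at 67.3% (0.0128), YARS1 at 74.2% (0.0387) and VARS2 at 67.2% (0.0448). That is 16.7% of the 36 members beside 7.00% of all genes called lower, and 0 members were called higher beside 6.33%. With SH1 alone 0 members were called, beside 0.403% of all genes in either direction and 0.248% lower, and the smallest adjusted p was 0.0986, for GARS1. All 6 genes called on SH3 encode class I enzymes, whose catalytic domain is a nucleotide-binding fold, out of 18 such members, and 0 of the 16 class II members, built around a different fold, were called. The median difference of both hairpins was -0.18 for class I and -0.06 for class II. On SH3 alone the medians were close, at -0.09 for class I (13 of 18 lower) and -0.06 for class II (11 of 16 lower). On SH1 they were -0.18 and 0.01. The classes were not tested against each other. The bifunctional EPRS1 joins both classes and was counted in neither. The adjustment was made for each hairpin apart, so differences of similar size can be called on SH3 and not on SH1. VARS2 differed by -0.54 on SH1 and -0.57 on SH3 (SE 0.16 for each). The others of the 6 differed on SH1 by -0.23 (LARS1), -0.43 (CARS2), 0.24 (RARS1), -0.44 (IARS1) and -0.29 (YARS1).

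**Figure D3:**
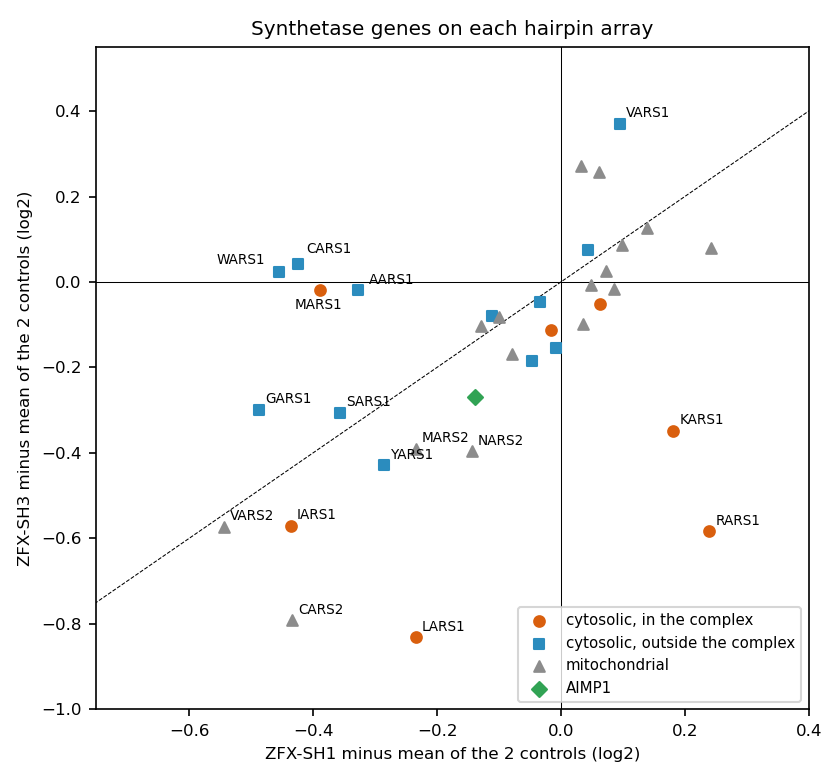
Each point is a member at its log2 difference from the mean of the controls on SH1 (horizontal axis) and SH3 (vertical axis), both set against the same 2 controls, and the dashed line marks equal values. RARS1 and KARS1 lie at the lower right, higher on SH1 and lower on SH3, while WARS1, CARS1, MARS1 and AARS1 lie at the left, low on SH1 and close to 0 on SH3.

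An opposite order of the hairpins was seen for a group of cytosolic genes with high values on LEN-GFP. WARS1, the tryptophan enzyme, which is also induced by interferon, was at 12.51 on LEN-GFP, 12.07 on SCR, 11.83 on SH1 and 12.31 on SH3. LEN-GFP was the highest array, SH3 came next and SH1 was lowest. AARS1, the alanine enzyme, read 12.37 on LEN-GFP, 11.94 on SCR, 11.83 on SH1 and 12.14 on SH3, in the same order. These had the largest differences between the controls of any member, with SCR minus LEN-GFP at -0.43 (SE 0.29) for WARS1 and -0.42 (SE 0.23) for AARS1. CARS1 (cysteine) and MARS1 (methionine) differed by -0.43 and -0.39 on SH1 but by 0.04 and -0.02 on SH3. Without LEN-GFP the difference of both hairpins from control was 0.00 for WARS1 and 0.04 for AARS1. In limma, 0 members and 0% of all genes were called between the controls, and at an unadjusted p under 0.05 there were 0 members beside 0.636% of all genes. This fit takes its spread from the hairpin pair and is wide where the hairpins differ (SE 0.46 for RARS1, against 0.13 in the comparison of the hairpins), so these counts do not show that the controls were alike.

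The array values were then described by the presence of the element core, which WARS1 lacks in both of its windows. For the 7 cytosolic genes with the core, LEN-GFP was the highest array in 7 of 7, SCR was below LEN-GFP by a median of -0.24, and the median difference from control was -0.39 on SH1 and -0.05 on SH3. Among the 9 cytosolic genes with a window but no core, LEN-GFP was highest in 4, SCR minus LEN-GFP had a median of 0.03, and the medians were -0.01 on SH1 and -0.15 on SH3. Set against SCR alone, SH1 was lower in 7 of 7 genes with the core (median -0.26) and in 5 of 9 without it (median -0.02). On SH3 the medians against SCR were -0.0015 with the core and -0.12 without. The mitochondrial YARS2, which has a core far upstream, did not show this order, with 8.60 on LEN-GFP, 8.67 on SCR, 8.56 on SH1 and 8.47 on SH3. The full order, falling from LEN-GFP through SCR to SH1 with SH3 above SH1, held for 5 of the 7 genes with the core and 2 of the 9 without it, beside 14.7% of all genes. The exceptions with the core were IARS1 and NARS1, both lowest on SH3, and the genes without it that had the order were WARS1 and SARS1. The grouping was made after the array values were known, and no test was run on it.

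**Figure D4:**
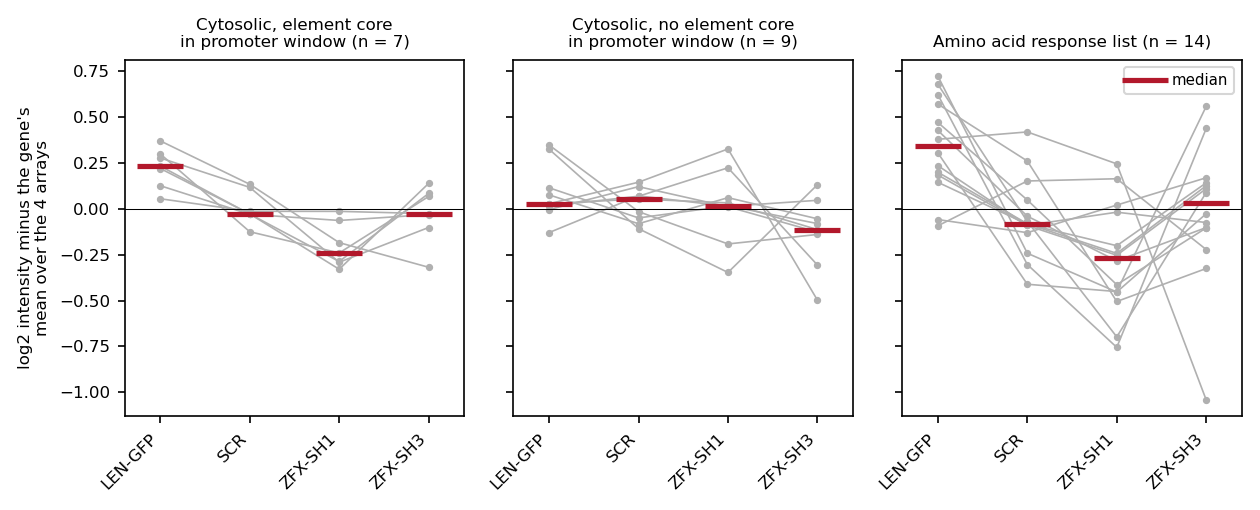
Grey lines join the 4 arrays of a gene, at its log2 intensity minus its own mean over the arrays, and red bars mark the median. The medians of the 7 cytosolic genes with the element core and of the 14 genes of the amino acid response list are highest on LEN-GFP and lowest on SH1, while for the 9 cytosolic genes without the core the lowest median is that of SH3.

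Genes of the amino acid response, the ATF4 programme, had their highest median on LEN-GFP and their lowest on SH1. Of the 14 on the list, 12 were lower on SH1 (median -0.36) and 8 on SH3 (median -0.17), and SCR was below LEN-GFP in 12 (median -0.32, where 58.6% of all genes were lower). These comparisons share the control arrays. Against SCR alone, SH1 was lower in 11 of the 14 (median -0.17), but SH3 was lower in only 5 (median 0.18). PSAT1, an enzyme of serine synthesis with the largest difference of the list (-0.83, SE 0.16), was at 10.40 on LEN-GFP, 10.09 on SCR, 9.32 on SH1 and 9.50 on SH3. It was low on both hairpins, with a difference from control of -0.92 on SH1 and -0.74 on SH3 (SE 0.16 for each). ASNS, asparagine synthetase, was at 10.47 on LEN-GFP, 9.72 on SCR, 9.09 on SH1 and 9.88 on SH3. ATF4 itself was at 12.00 on LEN-GFP, 11.72 on SCR, 11.55 on SH1 and 11.92 on SH3, the order of AARS1. EIF2AK4, the kinase that senses uncharged tRNA, was level on 3 arrays (10.27 on LEN-GFP, 10.31 on SCR and 10.13 on SH1) and low on SH3 at 8.85, and limma called it on SH3 (adjusted p = 4.33e-04).

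The E-box was found in the windows of IARS1, CARS2, MARS2, EARS2 and AIMP2, that is in 1 of 16 cytosolic and 3 of 14 mitochondrial genes, where 8.77% of all genes had it. IARS1, CARS2 and MARS2 were among the 6 members lower at an unadjusted p under 0.05, while EARS2 was above both controls. YARS1 and VARS2, also among those 6, had no window to search, and the link of motif and difference was not tested. MYC was at 11.37 on LEN-GFP, 11.21 on SCR, 11.09 on SH1 and 10.30 on SH3, low on SH3 as LARS1 was. The core AGGCCT of the motif known for ZFX was in the windows of HARS1, SARS1, TARS1, HARS2 and EARS2, 18.8% of cytosolic and 14.3% of mitochondrial genes, beside 13.0% of all genes. Of these 5 genes 2 were lower on both hairpins than on both controls, SARS1 and, by less than the second decimal, TARS1, and 2 were higher, EARS2 and HARS2. A match describes the letters of the window and not a bound site.

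Other genes of the tRNA pathway were counted for comparison. Of 11 other genes of tRNA charging, editing and export, 9 had a difference below 0, with a median of -0.11, which was -0.24 on SH3 and -0.02 on SH1. DTD2, an editing enzyme that releases wrongly joined amino acids from tRNA, was at 10.23 on both controls, 10.13 on SH1 and 9.29 on SH3, and was called on SH3 (limma adjusted p = 0.00211). TARS3, a threonine enzyme close to TARS1 in sequence, differed by -0.62 on SH3 and was also called (adjusted p = 0.0168), and the tRNA exporter XPOT differed by -0.36. The groups overlapped for 5 of 5 cytosolic elongation factors, which carry charged tRNA to the ribosome or move it along, and their median was 0.02. Mitochondrial elongation factors had a median of -0.01 over 3 genes, tRNA processing -0.08 over 16 genes and RNA polymerase III -0.03 over 19. Larger differences of both hairpins from control included the tRNA processing genes ELAC1 (-0.27) and POP5 (0.24) and the RNA polymerase III gene GTF3C3 (0.23). The splicing endonuclease subunit TSEN34 differed by 0.58 on SH3 and the 5S rRNA factor GTF3A by -0.48, each called on that array alone (adjusted p = 0.0312 and 0.0230), and BRF1, a subunit of the factor that recruits RNA polymerase III, by -0.47.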

How the data were processed

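RNA of NOMO-1 cells, 200 ng for each of the 4 arrays, was labelled with biotin using the Ambion WT kit and hybridised to expression arrays, per the labels' protocols. The authors deposited 1 table of linear intensities for 33297 probe sets. The submitters' processing notes name Affymetrix Expression Console 1.1 and RMA, and no source used here states how RMA's log2 values became linear. RMA makes the arrays alike in distribution, so a change in total RNA is not visible.

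Values were analysed as log2 without an added constant. By the platform's annotation, 19460 probe sets had 1 gene symbol, 1754 several and 12083 none. The brightest probe set with a single symbol stood for a gene, and a filter removed the dimmest 30% of the 18417 genes (mean log2 below 6.70). Groups and single arrays were set against each other in limma 3.58.1, run under R 4.3.3 (intensity trend, two-sided, Benjamini-Hochberg over 12892 genes, threshold 0.05). The fit of the 2 groups was also run on simulated data. The differences planted there were larger than that of any member, so smaller ones were not covered. The fit had 2 residual degrees of freedom and a prior of 2.95. The number of arrays limits the precision. Members and lists were chosen with earlier results of these data known, so lists are described by counts and medians. Array values were printed for up to 6 members a direction and class by the gap between the groups, and for AIMP1. They were also printed for the 4 members with the largest differences between the hairpins, the 4 between the controls, and ZFX, ATF4 and MYC. Of the members chosen by the gap, TARS1 was given by its nearest arrays only and WARS2 by its difference only. Of each related list, up to 3 genes were named by size of difference, some without array values. The rule's AIMP2 and EEF1E1 were not analysed here. For a single hairpin array the control pair gives the spread. Genes named beyond this were chosen after their values were seen. RefSeq promoter windows were matched by symbol for 33 of the 38 listed genes. Alternatives were the filter, the probe set rule, an offset of 50, quantile normalization, median centring, no trend, and each array left out.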

Additional observations from a re-analysis of the deposited data

Results flagged for a closer look

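The hairpins differed from each other on 3 members in limma's test of SH3 minus SH1, with the control pair as the only source of spread. These are 8.33% of the 36 members, near the 8.49% of all genes called in the same test. The difference was -0.82 for RARS1, -0.60 for LARS1 and -0.53 for KARS1, all lower on SH3 and all in the multi-synthetase complex. ZFX itself was at 10.13 on SH1 and 10.12 on SH3.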

How the results depend on the processing

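With 1 array per construct, precision is limited by the number of arrays, and detection above background is not recorded in the values used here. Across the filter, probe set, offset, scaling and trend alternatives 0 members were called, and the 21 members named by rule kept their direction wherever they were tested. With the dimmest 50% of genes left out the median of the mitochondrial enzymes was 0.02. Leaving out 1 array in turn gave 0 to 6 members called, all 6 without SH1, where 13.2% of all genes were called. It gave 25 to 29 of 36 members without overlap between the groups, beside 62.7% to 78.5% of all genes, and 1 to 10 lower at an unadjusted p under 0.05, counts made after the data were seen. The median ranged from -0.17 to -0.07 for cytosolic enzymes, from -0.05 to 0.03 for mitochondrial enzymes, and from -0.15 to -0.06 for their difference. Without 1 array, the difference ranged from -0.46 to 0.02 for WARS1, -0.39 to 0.04 for AARS1, -0.58 to 0.24 for RARS1 and -0.35 to 0.18 for KARS1. WARS1 reversed to 0.00 and AARS1 to 0.04 without LEN-GFP, WARS1 to 0.02 without SH1, and RARS1 to 0.24 and KARS1 to 0.18 without SH3, and the cause was not tested. No paired analysis was possible because the replicate numbers only name arrays of different constructs.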
